A study of Mus musculus with 29 samples.

Results

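Genes that turn carbohydrate carbon into fat were followed in mammary fat of mice under 6 feeding regimes. The 10 genes were chosen by name, as core enzymes of fatty acid synthesis and their regulators: Fasn, Acaca, Acacb, Acly, Acss2, Me1, Slc25a1, Thrsp, Mlxipl and Srebf1. All 10 were among the 30818 gene symbols of the deposited table, and all 10 were among the 19387 genes kept by a filter on low values.

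The design compares obesity, never-obese controls and 4 ways of losing weight, in 29 RNA-seq libraries, taken as 1 per mouse because the titles carry individual numbers. All mice were C57BL/6N, with the genotype given as wt. Control mice (n = 5) ate the diet D12450J. Every other mouse first ate D12492, a diet with 60% fat, until obese. Obese mice (n = 5) then stayed obese, and the rest were moved to 1 of 4 weight-loss diets. These were a low-fat diet without restriction (LFD, n = 5), a low-fat diet with calories cut by 30% (LFCR, n = 5), a Mediterranean-style diet with the same cut (MCR, n = 4) and intermittent calorie restriction (ICR, n = 5). Mice of all 6 groups, Control included, carried a tumor: cells of the mouse mammary cancer line E0771 were placed in fat pad 4 at week 25. The RNA came from fat pad 9 on the other side, taken at the end of the experiment. Sex, age and the time since the last meal were not stated in the labels used here. The titles start with the word tumor and the labels name the cancer line, while the tissue field names normal mammary tissue.

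Between 16403903 and 49026986 reads per library were recovered from the values (median 37270234), and the 5 libraries of sequencing lane 4 were the shallowest, at 16403903 to 18212783. The least covered value of any of the 10 genes was 584 reads, for Thrsp in a single Obese library. Levels are given as normalized counts, reads scaled by the authors with a factor for each library. These factors do not set all libraries to the same total. LFCR 1 (32532655 reads) was scaled by 1.34 and LFD 1 (31776919 reads) by 0.973. Adipoq, the adipocyte hormone adiponectin, lay between 16533 and 113190 normalized counts in every library, and Epcam, an epithelial surface protein, between 1258 and 6894. The casein gene Csn2 had a group median of at most 5.48, but single libraries reached 556 in ICR and 124 in Control. Csn3, another casein gene, was at 3498 ± 6097 normalized counts in ICR (SD, n = 5). B cell genes split the libraries: the mean of 13 of them was 6.33 to 7.25 on the log2 scale in 8 libraries (Obese 1 and 5, LFD 1, LFCR 1 and 3, MCR 1, 3 and 4) and 10.7 to 13.3 in the other 21. In bulk tissue, fewer cells of a type and less RNA per cell cannot be told apart, and the p-values below measure the spread between these libraries.

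Cells build fatty acids in the cytosol from acetyl-CoA. Citrate leaves the mitochondrion through the carrier Slc25a1 and is split by Acly, while Acss2 makes acetyl-CoA from acetate; the carboxylases Acaca and Acacb turn it into malonyl-CoA, and Fasn extends malonyl-CoA into palmitate with NADPH, part of which comes from Me1. Srebf1 encodes the transcription factor SREBP1, which acts downstream of insulin, Mlxipl encodes ChREBP, which responds to glucose, and Thrsp encodes Spot 14, a small protein of lipogenic tissues. In the mammary gland both the fat cells and the milk-making epithelium use this pathway.

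The regions just upstream of 4 of the genes are shown first because the 10 genes moved together. Fasn and Thrsp had the widest range of levels, and Slc25a1 and Mlxipl were those with a CACGTG match. CACGTG is an E-box form that many factors bind, and a single match does not mark a site of ChREBP. Each is the 250 bases before the RefSeq start on GRCm38.p6, read in the direction of the gene. Capitals mark matches on either strand to CACGTG, to TCACNCCAC (a sterol-element type), to CCAAT (the NF-Y box, ATTGG on the other strand) and to GGGCGG (the GC box, CCGCCC on the other strand).
Fasn, chr11:120824548-120824797, minus strand: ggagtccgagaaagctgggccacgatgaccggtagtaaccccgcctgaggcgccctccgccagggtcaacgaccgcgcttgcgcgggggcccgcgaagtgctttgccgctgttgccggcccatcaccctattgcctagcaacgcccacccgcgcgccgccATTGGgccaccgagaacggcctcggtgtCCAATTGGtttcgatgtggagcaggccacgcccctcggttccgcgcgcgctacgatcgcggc
Thrsp, chr7:97417551-97417800, minus strand: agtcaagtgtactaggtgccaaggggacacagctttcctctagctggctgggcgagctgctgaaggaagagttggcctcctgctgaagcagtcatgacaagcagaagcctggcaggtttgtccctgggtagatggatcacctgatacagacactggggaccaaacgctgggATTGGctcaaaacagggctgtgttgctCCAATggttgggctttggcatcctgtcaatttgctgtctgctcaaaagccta
Slc25a1, chr16:17928220-17928469, minus strand: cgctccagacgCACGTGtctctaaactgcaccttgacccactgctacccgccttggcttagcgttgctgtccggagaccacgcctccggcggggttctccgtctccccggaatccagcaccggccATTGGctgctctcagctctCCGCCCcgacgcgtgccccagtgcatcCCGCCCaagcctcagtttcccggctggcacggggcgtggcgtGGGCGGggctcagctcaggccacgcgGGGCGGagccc
Mlxipl, chr5:135089640-135089889, plus strand: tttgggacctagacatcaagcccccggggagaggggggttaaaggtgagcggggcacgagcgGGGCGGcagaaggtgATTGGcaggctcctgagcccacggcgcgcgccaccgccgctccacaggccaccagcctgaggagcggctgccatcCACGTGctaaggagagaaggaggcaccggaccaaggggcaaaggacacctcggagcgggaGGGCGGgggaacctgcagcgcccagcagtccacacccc

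The Fasn window held 3 CCAAT matches, the nearest pair of them overlapping in the run CCAATTGG. The Thrsp window held 2, on opposite strands, at 79 to 75 and 52 to 48 bases before the start. Across all 14 windows of the 10 genes, CCAAT was found for 8 genes (not for Acaca and Acly), GGGCGG for 6, CACGTG for 2 and TCACNCCAC for 1, the last in the window of a second Mlxipl start. Of 32851 mouse promoter windows of the same length, 33.8% held CCAAT, 32.7% GGGCGG, 6.02% CACGTG and 1.05% TCACNCCAC. Genes with several starts had more than 1 window in which a match could fall. The only windows of Acaca (chr11:84195188-84195437) and Acacb (chr5:114165268-114165517) lie inside their gene models, which start at 84129672 and 114146535. The bases upstream of those model starts were not searched.

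All 10 genes had their highest mean in LFCR and their lowest in Obese. Fasn, the synthase itself, varied most, 74.2-fold between those means, followed by Thrsp at 38.7-fold, Acaca at 33.2-fold, Acss2 at 21.3-fold and Acly at 19.7-fold. Me1 spanned 11.1-fold, Acacb 10.7-fold and Slc25a1 9.81-fold. The transcription factor genes varied least, 3.36-fold for Mlxipl and 3.25-fold for Srebf1. Together the 10 genes took 0.128% ± 0.0227 (SD, n = 5) of all normalized reads in Obese and 3.19% ± 0.952 (SD, n = 5) in LFCR, and Fasn alone took 0.0320% and 1.96%.

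**Figure D1:**
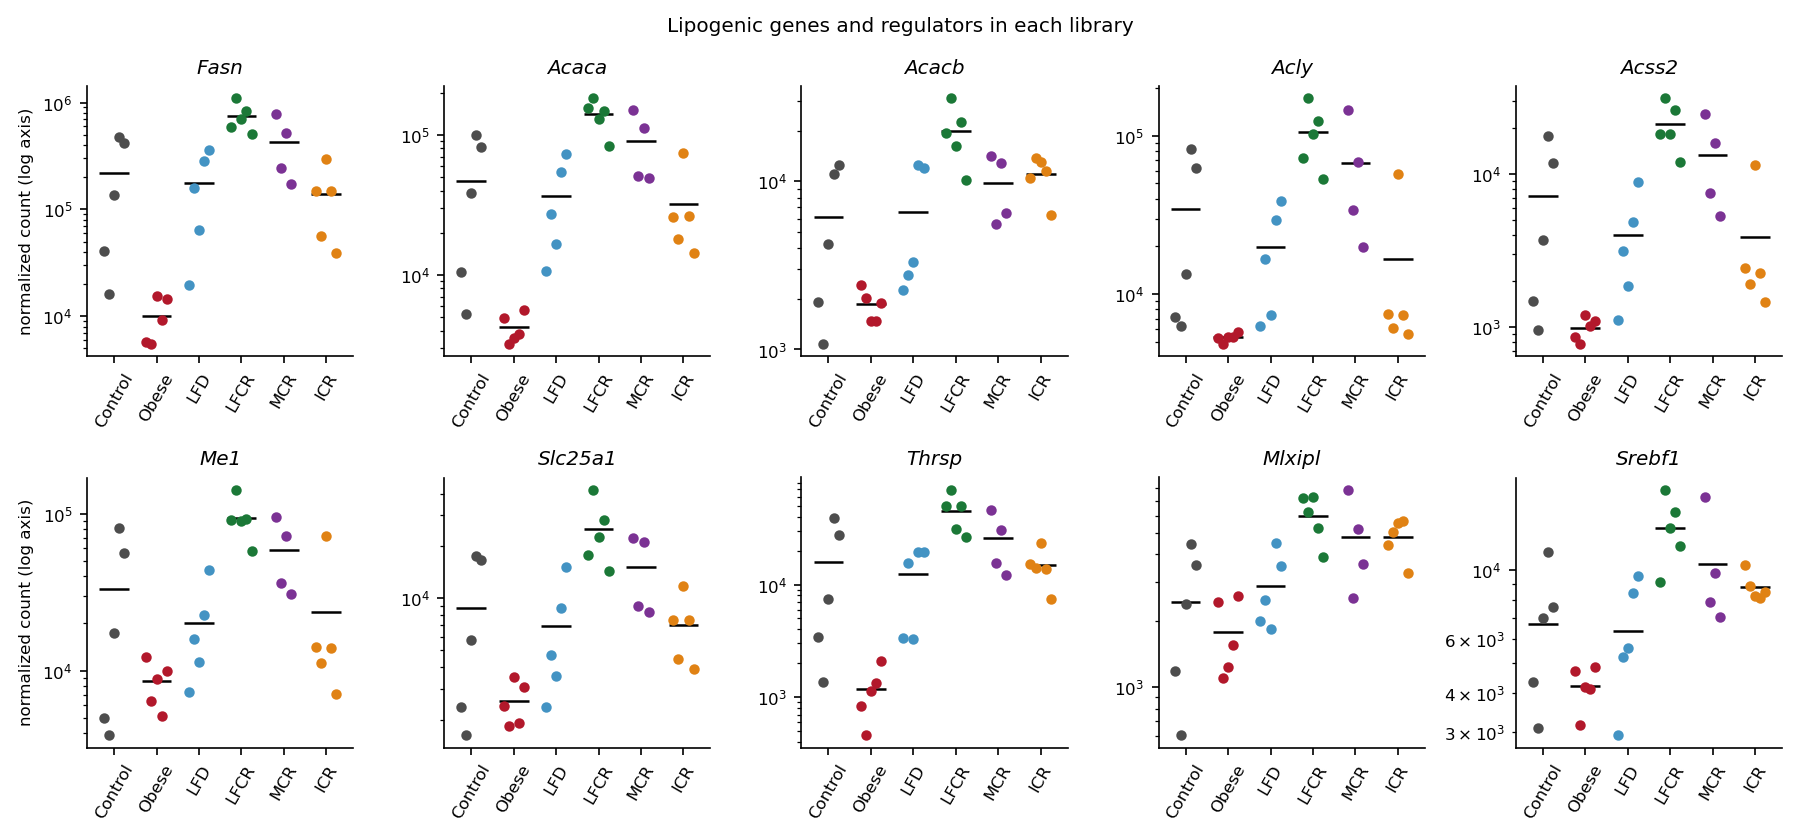
Normalized counts on a log axis for the 10 genes, with 1 point per library and a black line at the group mean (n = 5, MCR n = 4). LFCR is highest and Obese lowest in each panel, Control and LFD spread widely, and 1 ICR library lies above the other 4 in Acly, Acss2 and Me1.

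Fasn lies on chromosome 11 from 120805846 to 120824547 (GRCm38, GENCODE annotation, protein-coding, minus strand). Its normalized counts in the Obese libraries were 5726, 5526, 15363, 9256 and 14415. In Control they were 40610, 16051, 136742, 480368 and 416800, and in LFD 19683, 159290, 64904, 284163 and 363446. Every Control and LFD library was above every Obese library, but Control was spread over 29.9-fold and LFD over 18.5-fold, and Control 2 and LFD 1 came close to the highest Obese library. The LFCR counts were 585990, 1096910, 705991, 834849 and 508880. The MCR libraries gave 787471, 245120, 518654 and 174806, and the ICR libraries 149889, 56692, 298487, 147308 and 39208. LFCR was thus the tightest of the high groups, and its lowest library exceeded the highest library of Control, LFD and ICR.

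The carboxylase Acaca (chromosome 11, 84129672 to 84401651, plus strand) makes the malonyl-CoA that Fasn uses. It gave 4950, 3216, 3547, 3760 and 5600 normalized counts in Obese and 154848, 182671, 129808, 148598 and 83954 in LFCR. The Control libraries ranged from 5282 in Control 2 to 99055 in Control 4. Acacb (chromosome 5, 114146535 to 114250761, plus strand) encodes the carboxylase at the mitochondrial surface, whose malonyl-CoA holds back fatty acid import through Cpt1. Its counts were 2424, 2017, 1481, 1487 and 1899 in Obese, and 10530, 13771, 12974, 11575 and 6273 in ICR. The ICR libraries were all above the Obese ones for Acacb, and their median (11575) was close to the highest Control libraries (11022 and 12464).

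Of the genes that supply acetyl-CoA, Acly (chromosome 11, 100476353 to 100528000, minus strand) was nearly constant in Obese, at 5254, 4852, 5358, 5380 and 5778 normalized counts, a coefficient of variation of 6.22%. Its LFCR libraries gave 72507, 172329, 102917, 123987 and 52957. Acss2 (chromosome 2, 155517948 to 155585724, plus strand) ran from 780 to 1213 in Obese and from 11997 to 31363 in LFCR. The citrate carrier Slc25a1 (chromosome 16, 17925223 to 17928219, minus strand) ran from 1826 to 3521 in Obese and from 14307 to 42058 in LFCR. For all 3 genes every LFCR library was above every Obese library. Acss2 shares 395 exonic bases with Gss and 197 with Ggt7, both on the opposite strand and at mean normalized counts of 557 and 87.4. The kit keeps strand, but whether the counting used it is not given in the sources used here.

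Malic enzyme Me1 (chromosome 9, 86581371 to 86695953, minus strand) turns malate into pyruvate and yields NADPH. Its Obese counts were 12221, 6419, 8821, 5161 and 9976, and its Control counts 4965, 3866, 17468, 81516 and 56449. Control 1 and Control 2 thus lay below every Obese library, while Control 4 and Control 5 lay far above. Thrsp (chromosome 7, 97412938 to 97417730, minus strand) gave 840, 458, 1134, 1328 and 2100 normalized counts in Obese and 49612, 69522, 31190, 50021 and 26196 in LFCR.

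The transcription factor genes moved over a narrower range. Srebf1 (chromosome 11, 60199089 to 60222581, minus strand) gave 4720, 3157, 4195, 4117 and 4864 normalized counts in Obese, 9134, 18210, 13660, 15434 and 12009 in LFCR, and 10364, 8897, 8257, 8115 and 8525 in ICR. The ICR libraries were the tightest group for Srebf1, with a coefficient of variation of 10.3%. Mlxipl (chromosome 5, 135089890 to 135138382, plus strand) gave 2426, 1096, 1235, 1546 and 2594 in Obese and 7217, 6243, 7263, 5276 and 3901 in LFCR. Its Control libraries ran from 604 to 4469 and so covered the whole Obese range. Srebf1 shares 109 exonic bases with Rai1 on the opposite strand, which had a mean of 2239 normalized counts. The table holds 1 value per gene, so the isoforms SREBP1a and SREBP1c are not separated. Transcripts from the different Mlxipl starts are not separated either.

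Mice of 1 group often differed for the whole set of genes at once. Control had the largest SD of the 6 groups for all 10 genes on the log2 scale, from 0.73 for Srebf1 to 2.13 for Fasn. Control 2 was the lowest of its group for all 10 genes, and Control 4 was the highest for 9. Control 2 also had the lowest luminal epithelial mean of its group (10.1 on the log2 scale, against 11.1 to 11.6) and an adipocyte mean of 13.8 against 13.7 to 15.1. Its mean of 8 thermogenic adipocyte genes was the lowest too, 5.94 against 6.73 to 9.30. LFD 5 was the highest of its group for 8 genes and LFD 1 the lowest for 8, and the thermogenic mean of LFD 1 was 6.05 against 6.96 to 9.14 in the other LFD libraries. The luminal mean went the other way than in Control 2: that of LFD 1 was the highest of its group, at 12.25. Among the MCR libraries, MCR 1 was highest for all 10 genes and in the thermogenic mean, at 8.21 against 7.14 to 7.22. The thermogenic mean did not rank with the 10 genes in every group. Control 4 stood at 7.62, below Control 3 (8.49) and Control 5 (9.30). LFCR 5, the lowest of its group for 9 genes, was at 7.12, above LFCR 1 at 6.88. The part of cell composition in this spread was not tested.

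Levels were compared between genes only per kilobase of exon. In LFCR, Fasn led at 68194 ± 21152 normalized counts per kilobase (SD, n = 5), ahead of Me1 (24539), Thrsp (20698) and Acly (19879). In Obese the order was different: Me1 led at 2214, Slc25a1 stood at 1175, Acly at 1009 and Fasn at 919 ± 426 (SD, n = 5). Thrsp was at 535 per kilobase in Obese, below Srebf1 at 747.

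Obese against Control showed lower levels of Fasn, Thrsp, Acaca and Acss2. Fasn was 10057 ± 4666 normalized counts in Obese and 218114 ± 216340 in Control (SD, n = 5 each), a log2 difference of -3.61 ± 0.81 (SE; limma across all genes, adjusted p = 0.00508). Thrsp fell by 2.96 (adjusted p = 0.00734, limma) and Acaca by 2.76 (adjusted p = 0.00613, limma) on the log2 scale. Acss2 fell by 2.03, just past the threshold of 0.05 (adjusted p = 0.0452, limma). These 4 of 10 compare with 3.44% of all genes tested that were lower in Obese, and the median log2 difference of the 10 was -1.56 against -0.03 over all genes.

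The other 6 genes gave log2 differences from -1.90 ± 0.71 for Acly (adjusted p = 0.0755, limma) to -0.21 ± 0.40 for Mlxipl (adjusted p = 0.745, limma). Of the 10, only Fasn and Acly had groups that did not overlap, against 9.15% of all genes. Within the 4 lanes that held both groups, Fasn, Acaca, Acly, Acss2 and Thrsp were lower in Obese in 4 of 4, and the other genes in 2 of 4. Luminal epithelial genes moved the same way: 4 of 12 fell, and their mean level was 9.90 to 10.6 in Obese and 10.1 to 11.6 in Control on the log2 scale. With that mean as a covariate 1 of the 10 genes passed, Fasn, which was also the 1 that passed in a fit of the Obese and Control libraries alone, and without Control 2 the count was 7. Over all genes 9.13% passed in either direction with the covariate and 5.58% in the fit of those groups alone. Acss2 lost its call in 8 of 10 fits that left out 1 library.

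LFD against Obese gave nearly the mirror image. Fasn rose by 3.66 ± 0.81 on the log2 scale (adjusted p = 0.00911, limma), Thrsp by 3.11 ± 0.70 (adjusted p = 0.0101, limma) and Acaca by 2.78 ± 0.63 (adjusted p = 0.0109, limma). These were 3 of 10, against 2.7% of all genes that were higher in LFD, with a median log2 difference of 1.49 over the 10 genes and 0.00 over all genes. Acly and Acss2 were at 1.53 ± 0.71 and 1.63 ± 0.67 (adjusted p = 0.219 and 0.155, limma), and Mlxipl and Srebf1 at 0.68 ± 0.40 and 0.49 ± 0.30. The 3 genes that rose and Acly had groups that did not overlap, against 5.44% of all genes. Luminal epithelial genes rose here too, 10 of 12, from a mean of 10.3 to 11.6. With the luminal mean as a covariate none of the 10 genes passed in limma, where 0.0619% of all genes did in either direction. Without the 8 libraries low in B cell genes 1 of the 10 passed, where 0.882% of all genes did.

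LFCR against Obese was the widest contrast, and all 10 genes rose, where 11.9% of all genes were higher. The rise was 6.29 ± 0.81 for Fasn (adjusted p = 1.07e-05, limma), 5.32 ± 0.70 for Thrsp and 5.03 ± 0.63 for Acaca on the log2 scale. Acss2 rose by 4.32 ± 0.67, Acly by 4.18 ± 0.71, Me1 by 3.47 ± 0.68, Acacb by 3.33 ± 0.55 and Slc25a1 by 3.23 ± 0.56. The smallest rises were those of Mlxipl (1.78 ± 0.40, adjusted p = 0.00225, limma) and Srebf1 (1.67 ± 0.30, adjusted p = 0.000319, limma). For none of the 10 genes was an LFCR library at or below an Obese library, and 15% of all genes had such groups without overlap. All 10 were higher in LFCR in 4 of 4 lanes that held both groups. The count stayed at 10 under every one of the 12 other settings tried and without any 1 library of these groups.

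MCR against Obese gave a like picture at a smaller size. All 10 genes rose, where 6.66% of all genes were higher, from 5.31 ± 0.86 for Fasn (adjusted p = 0.000309, limma) and 4.41 ± 0.74 for Thrsp to 1.23 ± 0.32 for Srebf1 (adjusted p = 0.0127, limma). Groups did not overlap for 9 of the 10, Mlxipl being the exception, against 11% of all genes. Without MCR 1 the count was 6, with the luminal mean as a covariate also 6, and without the libraries low in B cell genes 0 in limma, a fit that keeps 1 MCR library. MCR and LFCR were not told apart: MCR was lower by 0.40 to 1.05 on the log2 scale and 0 of 10 genes passed in limma, where 0% of all genes did, with 0 at an unadjusted p under 0.05 and 0 by limma voom. For Fasn the 95% interval of that difference ran from -2.74 to 0.78.

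**Figure D2:**
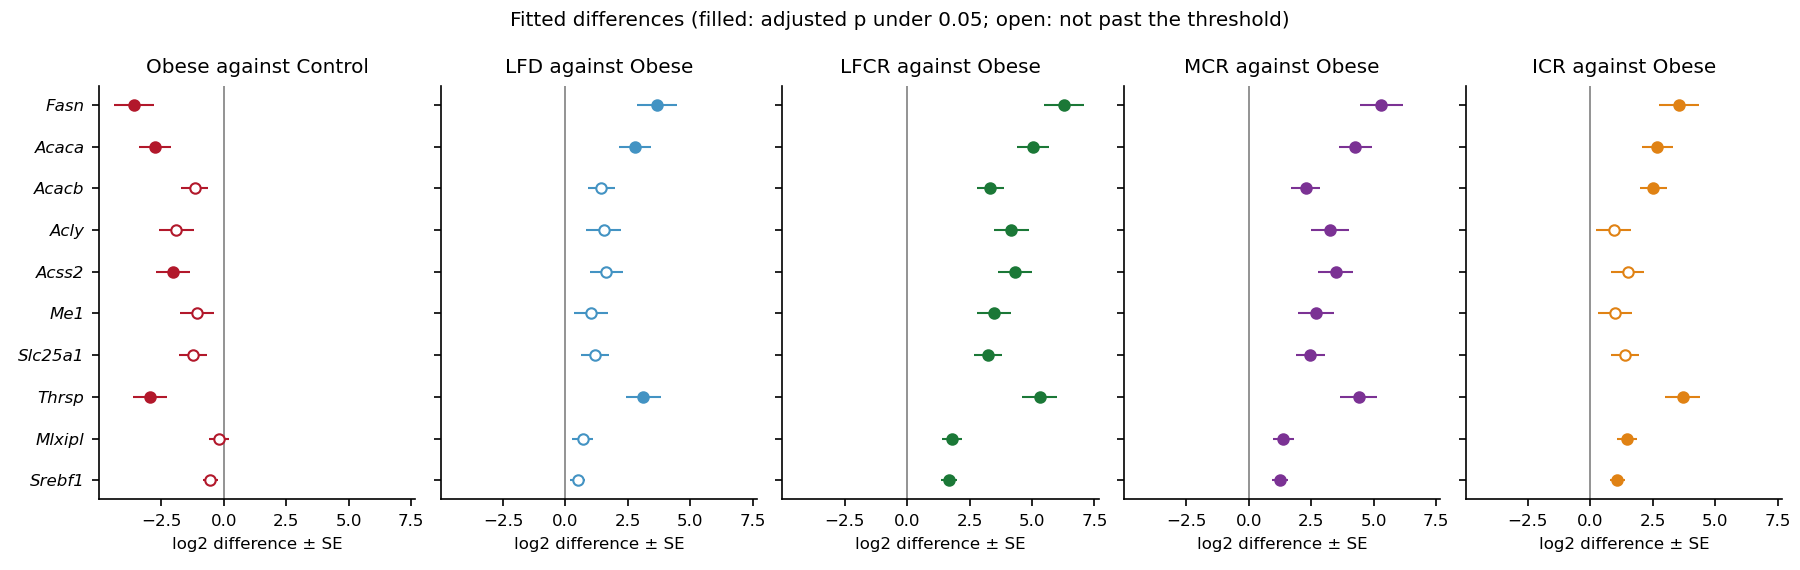
Fitted log2 differences with their SE for each of the 10 genes in 5 comparisons, where filled points passed an adjusted p of 0.05 and open points did not. Fasn, Acaca and Thrsp pass in all 5 panels, and all 10 genes pass for LFCR and MCR against Obese.

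In ICR against Obese 6 of the 10 genes rose. Thrsp rose by 3.70 ± 0.70 (adjusted p = 0.00144, limma), Fasn by 3.55 ± 0.81, Acaca by 2.68 ± 0.63 and Acacb by 2.52 ± 0.55 on the log2 scale. Mlxipl rose by 1.47 ± 0.40 and Srebf1 by 1.07 ± 0.30, and 3.99% of all genes were higher. The other 4 genes did not pass: Acly was at 0.93 ± 0.71 (adjusted p = 0.472, limma), Me1 at 0.99 ± 0.68 (adjusted p = 0.414, limma), Acss2 at 1.49 ± 0.67 (adjusted p = 0.173, limma) and Slc25a1 at 1.39 ± 0.56 (adjusted p = 0.122, limma). The 95% interval for Acly ran from -0.53 to 2.39. Groups did not overlap for 8 of 10 genes, all but Acly and Me1, against 8.84% of all genes.

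The ICR libraries were not alike in this. ICR 3 had 57078 normalized counts of Acly, while ICR 1, 2, 4 and 5 had 7464, 6126, 7399 and 5631, next to the Obese mean of 5324. Me1 stood at 72221 in ICR 3 and at 14204, 11125, 13996 and 7061 in the other 4. As a ratio to the Obese mean, Acly was 10.7 in ICR 3 and 1.06 to 1.40 in the others, and Me1 8.48 against 0.8288 to 1.67. For Fasn the other 4 libraries were already at 3.90 to 14.9 times the Obese mean, for Thrsp at 6.38 to 13.0 and for Acacb at 3.37 to 7.40. Srebf1 in ICR 3 was 1.96 times the Obese mean, inside the 1.93 to 2.46 of the others. The adipocyte mean of ICR 3 was 15.1 and the luminal mean 10.7 on the log2 scale, the lowest of the 5 ICR libraries in both. Its thermogenic adipocyte mean was 7.06, the highest of the 5 (6.20 to 6.73 in the others), and its B cell mean was 11.4 against 10.7 to 12.2. Their part in the levels of ICR 3 was not tested.

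**Figure D3:**
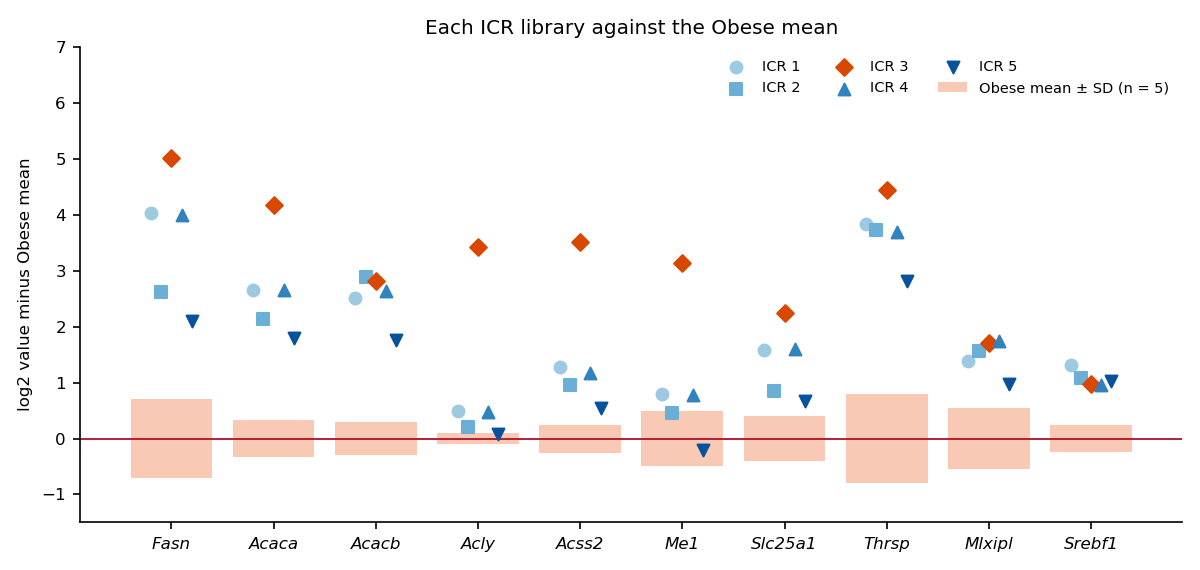
Log2 value of each ICR library minus the Obese mean for the 10 genes, with a shaded band for the Obese mean ± SD (n = 5). ICR 3 (diamonds) is far above the other 4 libraries for Acly, Acss2 and Me1 and among them for Acacb, Mlxipl and Srebf1.

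The weight-loss groups were also compared with the never-obese Control mice. LFD against Control gave 0 of 10 genes in limma, where 0% of all genes passed, 0 at an unadjusted p under 0.05 and 0 by limma voom. The log2 differences ran from -0.40 to 0.47. For Fasn the difference was 0.05 with a 95% interval from -1.61 to 1.71, which does not show that the groups are alike. ICR against Control also gave 0 of 10, where 4.58% of all genes passed in either direction, with 2 genes at an unadjusted p under 0.05 and 0 by limma voom. MCR against Control gave 1 of 10, Mlxipl (adjusted p = 0.0422, limma), where 13.9% of all genes were higher. That single call was lost in 7 of the 12 other settings and without Control 1, Control 2, MCR 1, MCR 3 or MCR 4, and without Control 4 the count was 8.

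LFCR against Control was higher for all 10 genes, where 20.1% of all genes were higher. The log2 differences ran from 2.68 ± 0.81 for Fasn (adjusted p = 0.0142, limma) to 1.13 ± 0.30 for Srebf1 (adjusted p = 0.00761, limma). Fasn alone had groups that did not overlap, 1 of 10 against 21.1% of all genes. Adipocyte genes moved with this contrast: 11 of 12 rose, and their mean was 15.4 to 16.1 in LFCR and 13.7 to 15.1 in Control on the log2 scale. With that mean as a covariate 0 of 10 genes passed in limma, where 0.0206% of all genes did in either direction. For LFCR against Obese all 10 still passed under it, where 20.4% of all genes did. Without Control 2, and with no covariate, the count for LFCR against Control was 6.

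LFCR and LFD share the low-fat diet and differ in the calorie cut. Of the 10 genes, 9 were higher in LFCR, where 6.29% of all genes were, from 2.69 ± 0.67 for Acss2 (adjusted p = 0.0176, limma) to 1.18 ± 0.30 for Srebf1 (adjusted p = 0.0203, limma), and Mlxipl was at 1.10 ± 0.40 (adjusted p = 0.0827, limma). Groups did not overlap for 6 of 10 genes, against 8.07% of all genes. These calls rested on few libraries: the count was 0 in limma without LFD 1, without LFD 3 or without LFCR 2, and it was 4 without LFCR 1, 2 without LFCR 3, 6 without LFCR 4 and 8 without LFD 2. It was also 0 with the luminal or the adipocyte mean as a covariate, where 0.0774% and 1.89% of all genes passed in either direction. With the lane as a term it was 1, where 4.1% of all genes passed. Luminal genes were lower in LFCR (9 of 12, against 3.32% of all genes).

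The remaining pairs of weight-loss diets gave no call among the 10 genes. MCR against LFD gave 0 in limma where 0.294% of all genes passed, with 6 genes at an unadjusted p under 0.05, and ICR against LFD 0 where 0.0309% did, with 0 at that level. ICR against LFCR gave 0 where 0% of all genes passed, but 7 genes were at an unadjusted p under 0.05 and 5 had groups that did not overlap, against 3.28% of all genes, at log2 differences from -3.24 to -0.31. ICR against MCR gave 0 where 0.00516% did, with 4 at an unadjusted p under 0.05. Limma voom made 0 calls among the 10 in each of these 4 comparisons. In the order of group means, the step from Obese to the next group passed the test for Fasn, Acaca and Thrsp only, and no step between other neighbours passed for any of the 10.

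Ratios within a library showed that the genes did not move by the same amount. Acaca stood at 2.30 ± 0.512 times Acacb in Obese and 6.99 ± 1.93 times in Control (SD, n = 5 each) in normalized counts. On the log2 scale the mean ratio of Obese was 1.17. Control reached 2.76, LFD 2.51, LFCR 2.86 and MCR 3.15, and no library of these 4 groups was as low as any Obese library. The exact two-sided permutation test gave p = 0.00794, the smallest it allows, for each of the 4, and 0.0132 after adjustment over 15 ratio tests. In ICR the ratio was 1.32 ± 0.76 (SD, n = 5), with single libraries from 0.40 to 2.53, and did not differ from Obese beyond this spread (exact permutation p = 0.754, adjusted 0.754). Acaca thus rose by more than Acacb in LFD, LFCR and MCR, and such a difference was not detected in ICR.

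Fasn shifted against Srebf1 in all 5 comparisons. The log2 ratio of the counts averaged 1.14 in Obese. It was 4.21 for Control, 4.31 for LFD, 5.75 for LFCR, 5.21 for MCR and 3.62 for ICR, and each group differed from Obese (exact permutation p = 0.00794, adjusted 0.0132). The single LFCR libraries lay within 5.41 to 6.00 and the single Control libraries within 2.38 to 5.77. Mlxipl against Srebf1 did not pass in any comparison with Obese (adjusted p from 0.19 to 0.754, exact permutation tests), with group means between -1.65 and -0.90.

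**Figure D4:**
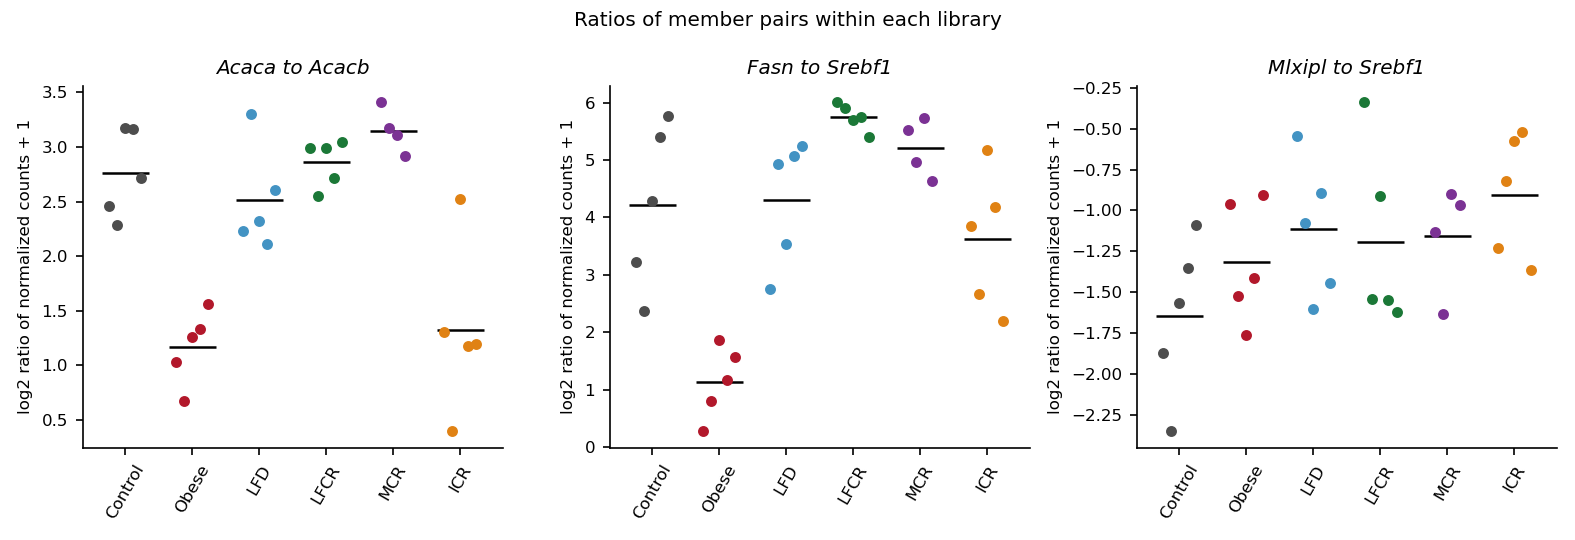
Log2 ratios of normalized counts plus 1 for 3 gene pairs, 1 point per library and a line at the group mean (n = 5, MCR n = 4). Obese and 4 of 5 ICR libraries lie low for Acaca to Acacb, Obese lies below every other group for Fasn to Srebf1, and the groups overlap for Mlxipl to Srebf1.

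The genes also varied together among mice on the same diet. After the group mean was taken from every library, deviations of Fasn and Slc25a1 correlated at r = 0.951 and rho = 0.957 over 29 libraries, and those of Fasn and Acaca at r = 0.942 and rho = 0.897. Both had a permutation p of 1e-05, the smallest that 100000 permutations within groups can give, and adjusted p-values of 1.86e-05 for r and 2.17e-05 for rho over 13 relations. Acss2 (r = 0.938), Thrsp (0.927), Me1 (0.895) and Acly (0.879) followed, then Acacb (0.8289), Srebf1 (0.828) and Mlxipl (r = 0.788, rho = 0.730, adjusted permutation p = 9.75e-05 and 0.000553). Without Control 2 and LFD 1, the libraries farthest out in Fasn, r was 0.943 for Slc25a1, 0.923 for Acaca and 0.739 for Mlxipl.

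Markers of other cells were set beside these values. Adipoq correlated with Fasn at r = 0.357 and rho = 0.362 (adjusted permutation p = 0.122 and 0.0997), the B cell mean at r = 0.122 and rho = 0.0251 (adjusted 0.521 and 0.889) and the luminal mean at r = 0.126 and rho = 0.0498 (adjusted 0.659 and 0.889). The mean of 8 thermogenic adipocyte genes gave r = 0.759 and rho = 0.667 (adjusted permutation p = 0.000858 and 0.00213), and 0.622 without the same 2 libraries. Deviations had the same sign as those of Fasn in 26 of 29 libraries for Slc25a1 and Acss2 and in 15 for Adipoq. Adipoq reached r = 0.698 when the 8 libraries low in B cell genes were left out. What lies behind the thermogenic relation was not tested.

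**Figure D5:**
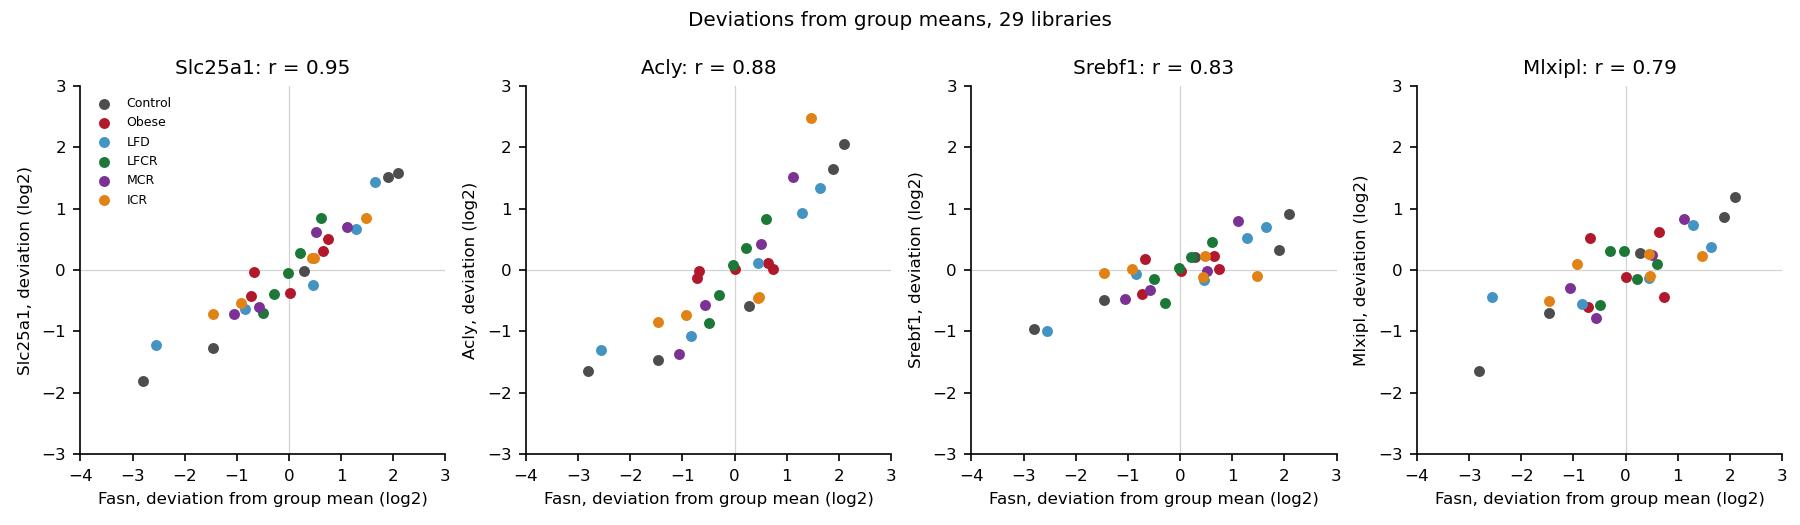
Deviations from the group mean of Slc25a1, Acly, Srebf1 and Mlxipl (vertical axes, log2) against those of Fasn (horizontal axes, log2), 29 libraries coloured by group. Slc25a1 follows Fasn most closely (r = 0.95), and Obese libraries stay near 0 for Acly.

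Over all 29 libraries, differences between groups included, 144 of 14694 other genes (0.980%) had r above 0.9 with the mean of the 10, given as a description because group and library are shared by all genes. The 10 most alike were Tkt (0.988), Pdhb (0.982), Pcx (0.979), Pdha1 (0.978), Oscp1 (0.976), Gbe1 (0.9746), Gpd2 (0.974), Coasy (0.970), Elovl6 (0.969) and Taldo1 (0.969). Tkt, transketolase of the pentose phosphate pathway, ran from 6994 ± 1466 in Obese to 86417 ± 21675 normalized counts in LFCR (SD, n = 5 each). Elovl6, which extends palmitate, ran from 821 ± 161 to 59770 ± 29656. Of these 10, 6 stood on the pathway lists described next.

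The pathway lists are read against the 11.9% of all genes that were higher and the 9.42% that were lower in LFCR than in Obese. In that comparison, genes of carbon supply to citrate rose for 13 of 14 tested, of 15 listed. Pdha1, a pyruvate dehydrogenase subunit, rose by 2.13 ± 0.32, its partner Pdhb by 2.26 ± 0.37, citrate synthase Cs by 1.54 ± 0.23 and the pyruvate carrier subunit Mpc1 by 2.26 ± 0.39. Of the desaturation and elongation genes 7 of 8 rose, with Elovl6 at 6.03 ± 0.92 and the desaturase Scd1 at 2.81 ± 0.47. Of the genes listed under NADPH supply 4 of 7 rose. The largest of these rises were in Tkt (3.61 ± 0.51) and Taldo1 (1.45 ± 0.24), enzymes of the non-oxidative pentose phosphate branch, which yields no NADPH itself. Of the enzymes that do yield NADPH, Pgd rose by 1.08 ± 0.32 and Idh1 by 0.61 ± 0.22, and the dehydrogenases G6pdx and H6pd were at -0.09 and -0.32 and did not pass (both named for this comparison after their values were seen). Of the genes of acyl-CoA activation and esterification 8 of 10 rose and 1 fell, with Pnpla3, a lipid droplet protein, at 3.22 ± 0.51 and the acyltransferase Gpam at 1.75 ± 0.29.

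Among upstream control genes the counts for the SREBP and ChREBP list and for the AMPK list were near those shares. Of 16 partners and regulators of SREBP and ChREBP 3 passed, all higher: Akt2, a kinase of insulin signalling, at 0.70 ± 0.16, Mlx, the partner of ChREBP, at 0.48 ± 0.12, and Insig1, which retains SREBPs in the endoplasmic reticulum, at 1.69 ± 0.44. Of 7 AMPK genes 1 passed, the catalytic subunit Prkaa2 (1.10 ± 0.23). Of 14 sterol synthesis and uptake genes, which SREBP2 mainly drives, 5 rose and 2 fell, against 11.9% and 9.42% of all genes. Fdft1 rose by 1.40 ± 0.24, whereas Hmgcs1 fell by 1.13. Cpt1a, the carnitine transferase that malonyl-CoA inhibits, fell by 0.97 (adjusted p = 1.16e-05, limma), while Cpt2 rose by 1.35 ± 0.26. Mlycd, on the same list of malonyl-CoA turnover, rose by 0.49 ± 0.18 (adjusted p = 0.0478, limma). Cpt1b, also on it, was at 0.40 ± 0.56 and did not pass.

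The same lists were counted in the other comparisons. For MCR against Obese, where 6.66% of all genes were higher, 11 of 14 carbon supply genes, 4 of 8 desaturation and elongation genes and 2 of 7 NADPH genes rose. For ICR against Obese, where 3.99% were higher, these counts were 3 of 14, 1 of 8 and 1 of 7, and 5 of 10 activation and esterification genes rose and 1 fell. The differences in these counts between diets were not tested. Cpt1a fell by 0.58 in ICR and by 0.96 in MCR on the log2 scale. For Obese against Control, Elovl6 fell by 3.19, Slc2a5, a fructose transporter, by 3.01, Tkt by 1.61 and Pnpla3 by 1.59. The NADPH genes H6pd and G6pdx rose by 1.14 and 0.95, and Cpt1a by 0.54. Tkt was the only gene of the NADPH list that fell, and Pgd, Pgls, Taldo1 and Idh1 did not pass. Over all genes 3.44% were lower and 9.44% higher in Obese. For LFD against Obese, 0 genes of the 8 pathway lists passed in limma, where 2.7% of all genes were higher and 3.28% lower. Tkt was at 1.63 ± 0.51 there (adjusted p = 0.0577, limma). The rise of Tkt counted in ICR was of the same size, 1.63 ± 0.51 (adjusted p = 0.0448, limma).

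Other cell types moved beside these contrasts. Macrophage genes fell in LFCR against Obese (8 of 10, against 9.42% of all genes), in MCR (6 of 10, against 5.69%) and in ICR (4 of 10, against 5.23%). Adipocyte genes rose in LFCR against Obese for 7 of 12 and fell for 1, and the adipocyte mean was 14.5 to 15.7 in Obese and 15.4 to 16.1 in LFCR on the log2 scale. Alb, the liver albumin gene, rose from 360 ± 160 to 4844 ± 1654 normalized counts (SD, n = 5 each). Of 8 liver genes listed, 6 were in the table and 3 passed the filter; the other 2 of these, Serpina1a and Fgb, were at log2 differences of -0.22 and 1.37 and did not pass (also named after their values were seen). Of 8 thermogenic adipocyte genes 3 rose, and their mean was 5.71 to 6.73 in Obese and 6.88 to 8.31 in LFCR, while Ucp1, which defines brown and beige fat cells, was at 47.2 ± 61.9 and 31.0 ± 21.8 normalized counts (SD, n = 5 each). The part of these genes in the levels of the 10 lipogenic genes was not tested. With the adipocyte mean as a covariate LFCR against Obese kept 10 of 10 calls, where 20.4% of all genes passed. LFCR against Control and LFCR against LFD kept 0 under it, where 0.0206% and 1.89% of all genes passed. That covariate was chosen after seeing the data.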

How the data were processed

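RNA of 29 libraries was sequenced in paired reads of 76 bases from a stranded total RNA kit, per the labels' protocols. TopHat2 2.0.7, HTSeq 0.5.3p9, DESeq2 and the mm10 build are named, with no further detail, in the submitters' processing notes. Which annotation and counting options were used was not given in the sources used here. Each gene has 1 log2 value per library in the deposited table, computed by the authors. The transform is not stated. Undoing a variance-stabilising transform whose lowest value (3.75) stands for 0 reads returned whole reads for 100% of values in every library, within 0.01. Normalized counts are the untransformed values; log2 differences are on the deposited scale and understate changes of low genes.

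Genes with 10 or more normalized counts in at least 4 libraries were kept (19387). Group means of all 29 libraries were fitted with limma 3.58.1 (R 4.3.3, statmod 1.5.0; trend and robust moderation), with Benjamini-Hochberg adjustment over all kept genes within each of 15 comparisons and a threshold of 0.05. In simulated data for 19387 genes, a shift was added to the Obese libraries of genes drawn at random. Each gene kept its mean over all libraries and a residual SD shared by all groups. Of genes shifted by 1, 2 and 3 on the log2 scale, 77.6%, 95.5% and 98.5% were recovered for Obese against Control. Recovery was not measured for the 10 genes, whose spread differed between groups. Ratios used normalized counts plus 1 and exact permutation tests. Alternatives were no filter, a stricter one (mean of 50), log2 of counts plus 1, quantile normalization, limma voom on recovered reads, moderation without trend, lane as a term, marker means as covariates (the adipocyte one was chosen after seeing the data), a fit of only the groups compared, no libraries low in B cell genes (13-gene mean under 9), and each library left out. Lanes are read from column names; no lane holds more than 1 library of a group.

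The 10 genes, the pathway and marker lists and these tests were chosen with earlier results of these data known. Named genes are the 10, up to 4 genes per pathway list with the smallest adjusted p, fixed defining markers, and the 10 genes most correlated with the mean of the 10 (mean count of 50 or more). Promoter windows are RefSeq's, matched by symbol for 10 of 10 genes.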

Additional observations from a re-analysis of the deposited data

Results flagged for a closer look

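In the ICR group, ICR 3 stood apart from the other 4 libraries for 4 of the 10 genes, by a gap wider than Dixon's limit for 5 samples. Its normalized counts were 74764 for Acaca against 14426 to 26205 in the others, 57078 for Acly against 5631 to 7464, 11487 for Acss2 against 1455 to 2439 and 72221 for Me1 against 7061 to 14204. The gap as a fraction of the group's range was 0.805, 0.964, 0.902 and 0.890 in that order. These fractions were taken on normalized counts. On the log2 scale each is smaller, and the flags do not take this into account. Acaca was at 16.2 in ICR 3 on that scale against 13.8 to 14.7 in the others, and Me1 at 16.1 against 12.8 to 13.8. The flags for Acaca and Me1 may therefore not hold on the log2 scale, which the fits used. In all, 60 pairs of gene and group were tested and 4 were flagged; chance flags about 1 pair in 20, and these genes vary together, so the 4 are not independent. Without ICR 3, ICR against Obese still gave 6 of the 10 genes past the threshold and ICR against LFCR gave 1.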

How the results depend on the processing

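For LFCR against Obese all 10 calls held under the 12 other settings and without each library in turn. The count moved elsewhere. For Obese against Control it was 1 with the luminal covariate and 1 in the fit of those groups alone; for LFD against Obese 0 with the luminal covariate, 1 without the libraries low in B cell genes and 1 in the fit of those groups alone. For MCR against Obese it was 6 with the luminal covariate and 0 without the libraries low in B cell genes; for LFCR against Control 0 with the adipocyte covariate. For MCR against Control it was 0 with no filter, voom, the lane term, the B cell or adipocyte covariate, the low B cell libraries left out, or those groups alone; for ICR against Control 1 with the B cell or luminal covariate or without the low B cell libraries. For LFCR against LFD it was 3 with quantile normalization, 1 with the lane term, and 0 with the luminal or adipocyte covariate or without the low B cell libraries. The causes were not tested, save that the fits without the 8 libraries hold fewer samples. The share of all genes past the threshold moved as well. With the luminal covariate it was 9.13% for Obese against Control, 0.0619% for LFD against Obese and 0.0774% for LFCR against LFD. With the adipocyte covariate it was 0.0206% for LFCR against Control and 1.89% for LFCR against LFD.

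Leaving out 1 library gave counts of 3 to 7 for Obese against Control, 3 to 3 for LFD, 10 to 10 for LFCR, 6 to 10 for MCR and 4 to 6 for ICR against Obese. Against Control the counts were 0 for LFD, 6 to 10 for LFCR, 0 to 8 for MCR and 0 to 1 for ICR; they were 0 to 9 for LFCR and 0 for MCR and ICR against LFD, 0 for MCR and 0 to 1 for ICR against LFCR, and 0 to 1 for ICR against MCR. Of 1450 single-gene results with 1 library left out, 1358 kept their side of the threshold, 76 lost a call, 16 gained one and 0 reversed; of 1800 under other settings, these numbers were 1684, 108, 7 and 1. The reversal was Mlxipl in MCR against Control, -0.0776 with the adipocyte covariate (adjusted p = 0.999, limma). With limma voom the median of all genes moved by up to -0.37 (LFCR against Control); the 10 genes kept their direction in the called comparisons.

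Without the 8 libraries low in B cell genes, the ratio of Acaca to Acacb differed by -1.67 (Obese against Control), 1.49 (LFD against Obese) and 1.68 (LFCR against Obese), and that of Fasn to Srebf1 by -2.93, 3.41, 4.41 and 2.33 (Obese against Control; LFD, LFCR and ICR against Obese), no longer past the threshold in groups this small. All 147 ratio results with 1 library left out kept their side. Adipoq against Fasn reached r = 0.698 without those libraries and passed. No paired analysis was possible because the labels give no replicate numbers shared between groups; the fit with lane as a term is the 1 blocked fit made.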
